A study of Homo sapiens with 2 samples.

Results

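The interleukin-6 family was described here by 10 genes: the cytokine genes IL11, IL6 and LIF, the receptor genes IL11RA, IL6R, IL6ST, LIFR and OSMR, the transcription factor gene STAT3 and the feedback inhibitor gene SOCS3. Every probe set annotated to exactly 1 of these symbols was taken, which gave 32 of the 54675 probe sets on the array and 10 of 19775 genes with a probe set of their own. A probe set is a group of short probes whose brightness is combined into 1 signal for a transcript. The genes were proposed with the values of these same 2 arrays in view, so their levels and ratios are a description and no test bears on them.

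The cells were HCC15, an established human lung cancer line labelled squamous, which the series title places among CTNNB1-mutated non-small-cell lung cancers. The 2 samples were 1 culture transfected with a control siRNA and 1 culture transfected with an siRNA to CTNNB1, which encodes beta-catenin, both collected 48 h after transfection and grown in RPMI medium with 5% serum. The labels do not name the target of the control siRNA, whose sample title contains the word Tax. Biotin-labelled RNA was measured on 1 array per group, with no replicate, so the spread between cultures is unknown and each ratio compares these 2 arrays only.

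Cytokines of the interleukin-6 family signal through gp130, the shared receptor chain encoded by IL6ST. Interleukin-6 and interleukin-11 first bind their own receptor chains, encoded by IL6R and IL11RA, whereas leukaemia inhibitory factor joins gp130 to the LIF receptor chain (LIFR) and oncostatin M joins it to OSMR or LIFR. The assembled receptors activate Janus kinases, which phosphorylate STAT3, and STAT3 induces SOCS3, which binds the receptor complex and dampens the signal. In epithelial tumours the family is known for links between inflammation, survival and acute-phase gene expression.

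The signal of CTNNB1 itself was 1224 with control siRNA and 338.7 with CTNNB1 siRNA at its brightest probe set (201533_at), 27.7% of the control. The other CTNNB1 probe sets read 129.7 and 118.4 (223679_at) and 89.8 and 45.8 (1554411_at). A probe set was used for counts when the mean of its 2 signals reached 49.1, the median of all values, and each gene was represented by its brightest such probe set. Under this filter 12531 genes were kept, with a median log2 ratio of 0.15 (CTNNB1 siRNA over control), and the family ratios are best read against that shift. Of the 8 squamous markers of a list of 10 that had a probe set, only SOX2 (60.1 and 41.6) and CALML3 (79.5 and 54.1) passed the filter. The other 6 were read dimly. The basal keratin gene KRT5 (34.4 and 9.8), KRT14 (25 and 6.7) and DSC3 (47.5 and 19) read lower with CTNNB1 siRNA. The desmosomal cadherin gene DSG3 (8.8 and 37.5) and KRT13 (6.2 and 18.9) read higher. PKP1 (7.1 and 3.1) was under 13.8, the 25th percentile of all values, on both arrays and is given no direction. The summed signal of the 8 was 269 and 191, and TP63 and KRT6A had no probe set of their own. Of 7 lung adenocarcinoma markers 6 had a probe set, with a summed signal of 366 and 452, and NAPSA (56.2 and 65.6), SFTPB (164.9 and 172) and SFTPC (107.3 and 190.6) passed. The brightest probe sets of 7 leukocyte markers read 25.9 to 80.4 with control siRNA and 3 to 80.3 with CTNNB1 siRNA, with a summed signal of 393 and 257. For 8 fibroblast markers the ranges were 27.1 to 162.5 and 10.3 to 86.6, summed to 473 and 350. Only 3 of these 7 leukocyte markers and 3 of these 8 fibroblast markers passed the filter. Of these 3 fibroblast markers, COL1A1 read 162.5 and 80.3 at its brightest probe set, a log2 ratio of -1.02. Over the COL1A1 probe sets that passed, the ratio ran from -1.02 to 0.07. By the brightest probe set, DCN (80.5 and 86.6) and COL1A2 (58.1 and 61.4) read slightly higher. None of the markers was at 0, but a dim signal does not by itself show a transcript. The sums therefore do not measure the content of other cells in this established line, and their part in the family values was not tested.

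The promoter sequences of the family are shown for the cytokine gene whose signal differed most (IL11), for the related cytokine gene whose signal was level (IL6), and for LIFR, the receptor gene past 2-fold. RefSeq start sites on GRCh38.p14 were listed for 9 of the 10 genes, 13 starts in all. Each sequence below is the 250 bases before the start, 5′ to 3′ in the direction of the gene, with capitals marking matches to TGANTCA, the AP-1 motif (IL11), or TTCNNNGAA, a wide form of the STAT motif (LIFR). IL6 carried none of the capitalised motifs. The LIFR windows shown are those with a match, and the third (chr5:38556647-38556896), which has none, is not shown.
IL11 (chr19:55370464-55370713, minus strand): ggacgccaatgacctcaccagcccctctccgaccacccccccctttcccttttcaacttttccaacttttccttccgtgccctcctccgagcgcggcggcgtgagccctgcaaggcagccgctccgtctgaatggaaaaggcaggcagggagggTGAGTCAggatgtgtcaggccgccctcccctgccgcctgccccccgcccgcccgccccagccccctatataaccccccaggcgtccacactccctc
IL6 (chr7:22726950-22727199, plus strand): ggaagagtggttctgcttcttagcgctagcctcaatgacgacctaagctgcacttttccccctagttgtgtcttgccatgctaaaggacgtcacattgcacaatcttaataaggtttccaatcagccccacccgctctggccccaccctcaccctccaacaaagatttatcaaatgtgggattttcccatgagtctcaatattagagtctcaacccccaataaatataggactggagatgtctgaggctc
LIFR, first start (chr5:38595406-38595655, minus strand): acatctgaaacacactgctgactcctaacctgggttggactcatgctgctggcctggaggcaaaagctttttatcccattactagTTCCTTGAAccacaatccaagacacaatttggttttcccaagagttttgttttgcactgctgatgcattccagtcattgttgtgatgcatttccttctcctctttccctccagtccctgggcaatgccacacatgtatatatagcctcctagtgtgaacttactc
LIFR, another start (chr5:38557468-38557717, minus strand): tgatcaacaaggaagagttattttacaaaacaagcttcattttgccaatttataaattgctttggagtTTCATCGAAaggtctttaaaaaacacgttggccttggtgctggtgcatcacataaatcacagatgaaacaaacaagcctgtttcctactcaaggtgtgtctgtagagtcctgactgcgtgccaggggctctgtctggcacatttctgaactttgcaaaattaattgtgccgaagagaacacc

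The motif TGANTCA was found in 1 of the 13 family windows, that of IL11, where it reads TGAGTCA and begins 96 bases before the start. It occurred in 6.57% of all 35116 promoter windows of the same length. The IL11 window also held 4 matches to GGGCGG, the SP1 motif, on its minus strand, and those beginning 45, 49 and 53 bases before the start each overlap the next. GGGCGG was present in 42.6% of all windows and in those of 6 family genes, among them IL6ST, OSMR and STAT3.

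The wide STAT motif TTCNNNGAA stood in 2 of the 3 LIFR windows, 165 and 182 bases before their starts, and in 6.57% of all windows. The stricter form TTCCNGGAA, present in 0.968% of all windows, was in none of the 13. The TCF/LEF motifs CTTTGAT (2.26% of all windows) and CTTTGAA (3.80%), bound by the partners of beta-catenin, were in none of them either. An NF-kB motif, GGGNNTTCC, was found in the windows of OSMR and STAT3 and in 5.78% of all windows. A longer NF-kB form, searched as a fixed sequence (0.179%), and the CREB motif TGACGTCA (1.65%) were found in none of the 13. Other forms of the NF-kB and TCF/LEF motifs were not searched. The absence of the searched forms from a window, such as that of IL6, therefore does not show that it lacks an NF-kB or TCF/LEF motif. Both strands were searched, and a match or its absence describes only the letters of these windows.

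Among the 9 family genes that passed the filter, 3 were at least 2-fold higher with CTNNB1 siRNA: the cytokine gene IL11, the receptor gene LIFR and the feedback inhibitor gene SOCS3. None was at least 2-fold lower, and 6 lay between. Across all genes 2.29% were at least 2-fold higher and 2.38% at least 2-fold lower, and nothing is read from the family count against these shares because the genes were chosen on this contrast. LIF did not pass the filter. The median log2 ratio of the 9 genes was 0.41, against 0.15 for all genes, and 8 of the 9 lay above the latter. Of all calls, 49.1% were higher as deposited, 72.1% with both arrays brought to the same median and 26.7% with the median ratio set to 0. The 8 genes other than IL6 had ratios above 0 under each of the 4 scalings tried, and IL6 (0.00) turned to -0.15 with that centring. In RNA from a whole culture, fewer cells with a transcript and less of it per cell cannot be told apart.

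The 3 genes past 2-fold were all of modest signal, with a mean between 49.1 and 209, the 75th percentile of all values. In that range 3.20% of genes were at least 2-fold higher and 5.72% at least 2-fold lower. The SD of log2 ratios between probe sets of the same gene was 0.52 there (1997 genes), against 0.33 for mean signals from 209 to 892 and 0.19 above that. This SD covers disagreement between probe sets and between transcripts of a gene, and not variation between cultures.

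**Figure D1:**
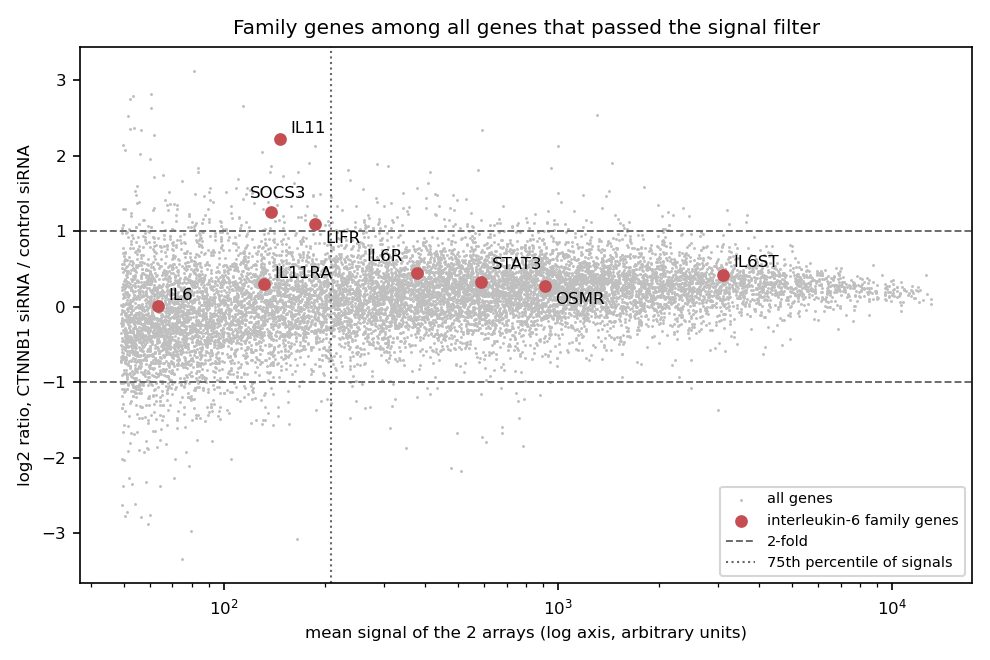
Log2 ratio of CTNNB1 siRNA over control siRNA (vertical axis) against the mean signal of the 2 arrays (horizontal log axis) for all 12531 genes that passed the filter, 1 point per gene. IL11, SOCS3 and LIFR lie above the upper 2-fold line and left of the 75th percentile of signals, and the other 6 family genes lie between the 2-fold lines.

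Of the 32 family probe sets, 19 passed the filter, and 18 of these had both signals at or above it. The remaining one, for IL6ST, passed on its control signal, so none passed through the CTNNB1 siRNA array alone. Of the 19, 17 had a log2 ratio above 0 and 15 lay above the median of all genes. Past 2-fold were 4 probe sets, all higher, against 3.48% higher and 2.42% lower over all probe sets that passed. A probe set with a control signal near the filter drops out if it falls, as LIFR 229185_at did (50.2 and 9.8). The control signals of IL11 206924_at (52.2) and IL6R 205945_at (49.6) were also near it. That all 4 were higher is therefore partly set by the filter. Of the 13 probe sets under the filter, 4 were under the floor of 13.8 (the 25th percentile) on both arrays and carry no ratio.

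**Figure D2:**
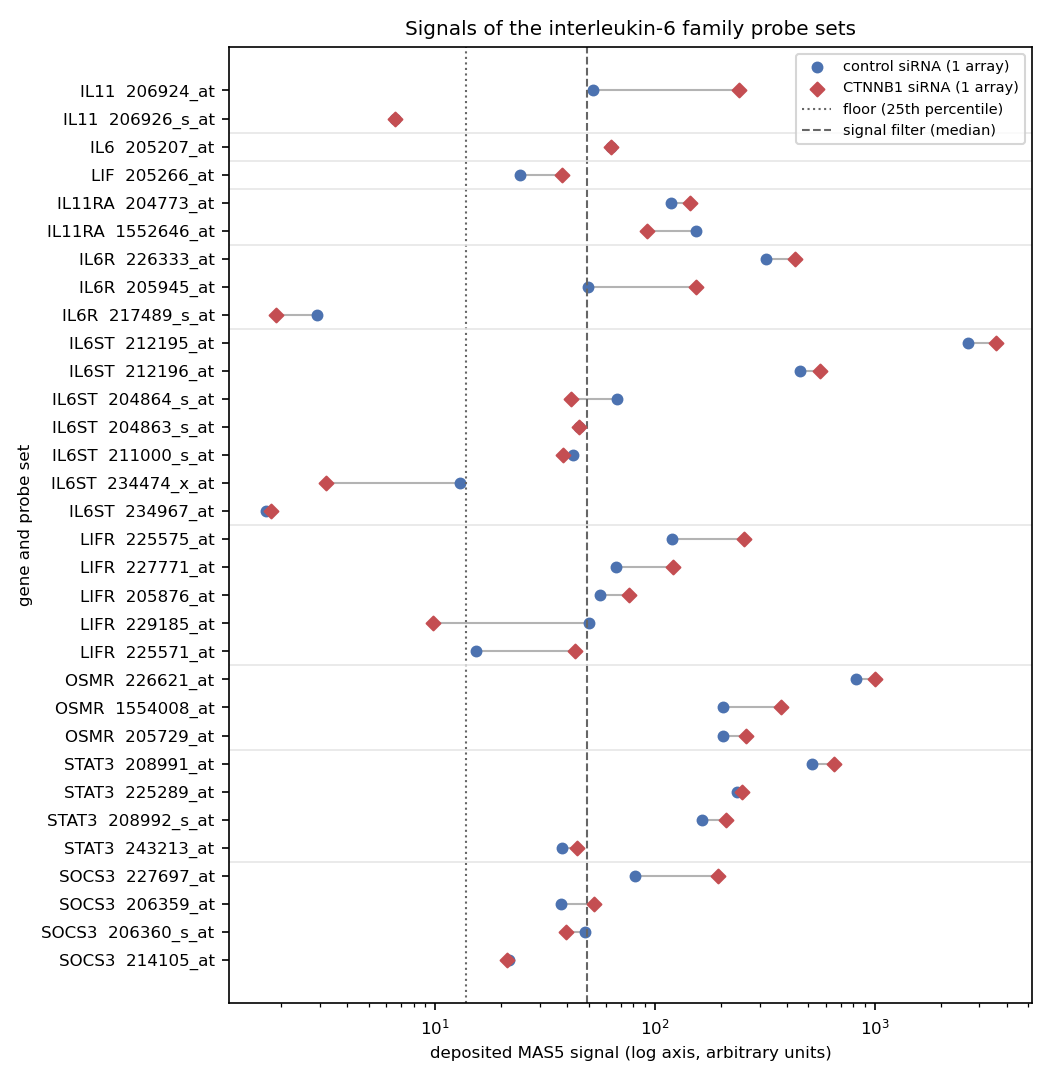
Deposited signal (log axis) of each of the 32 family probe sets, with a circle for the control siRNA array and a diamond for the CTNNB1 siRNA array joined by a line; where the signals coincide, as for IL6 (63.3 and 63.4), the diamond covers the circle. The IL11 probe set 206924_at spans 52.2 to 242.5, and the IL6ST probe set 212195_at is the brightest of the 32.

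IL11, which encodes a cytokine with known roles in stromal and epithelial responses, read 52.2 with control siRNA and 242.5 with CTNNB1 siRNA (206924_at). The signal was 4.65-fold higher, a log2 ratio of 2.22 and 2.07 above the median of all genes. Its control signal sat just over the filter and its CTNNB1 siRNA signal well above it. With 1 array per group, which of the 2 signals is usual for these cells is unknown. The ratio ranked 14 of 12531 genes from the highest. A second IL11 probe set (206926_s_at) read 6.6 on both arrays, under the floor, so only 1 probe set measured the difference.

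The 5 genes nearest to IL11 in log2 ratio over the 2 arrays were USH1G (2.27), PYY (2.14), COXFA4L3 (2.13), LMNB1 (2.12) and BCL9L (2.34), within 0.12 of it. The control signals of USH1G (21.1) and PYY (18.4) were below the filter value. Those of COXFA4L3 (69.7), LMNB1 (371.6) and BCL9L (194.8) were above it. The likeness is that of a single ratio and carries no information on shared regulation.

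IL6, the acute-phase cytokine gene that names the family, read 63.3 and 63.4 at its only probe set (205207_at). Its log2 ratio was 0.00, which is 0.15 below the median of all genes. The CTNNB1 siRNA signal was 100.2% of the control, at a brightness where probe sets of a gene differ by an SD of 0.52.

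LIF, whose product supports self-renewal and many tissue responses, had 1 probe set (205266_at) with signals of 24.4 and 37.9. Both were below the filter, and the ratio of 1.55-fold enters no count. Among probe sets under the filter with 1 gene symbol, 6.08% were at least 2-fold higher and 10.9% at least 2-fold lower, so ratios this dim vary widely.

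The other ligand genes of the family gave no signal that passed. Of 8 such genes 5 had a probe set of their own (OSM, CNTF, CTF1, IL27 and EBI3), and the brightest probe set of each read 3.8 to 22.9 with control siRNA and 3 to 22.7 with CTNNB1 siRNA. OSM, the gene of oncostatin M, read 22.9 and 7.8. CNTF, a neurotrophic cytokine gene, read 4.1 and 22.7.

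**Figure D3:**
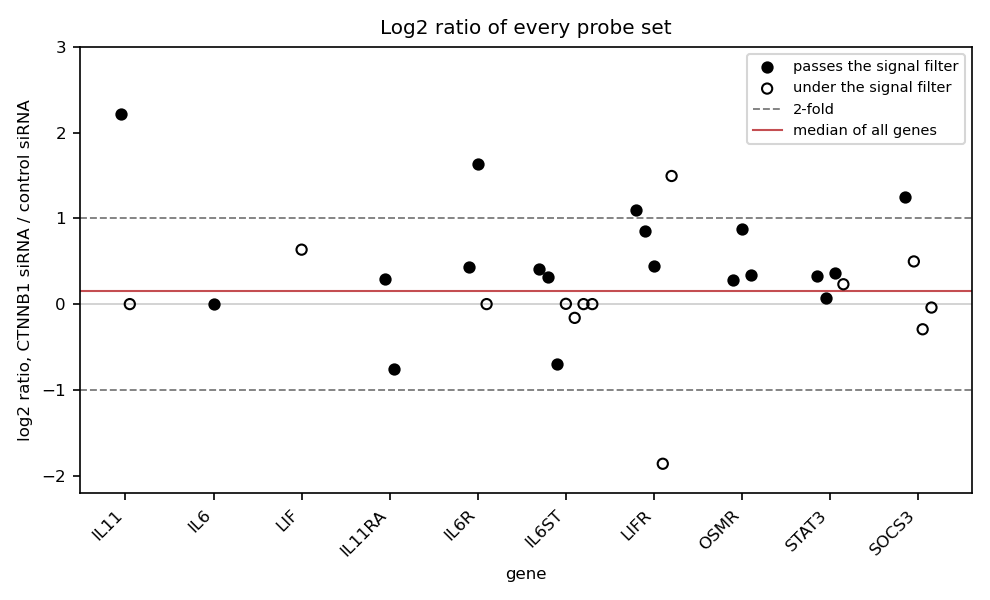
Log2 ratio of CTNNB1 siRNA over control siRNA for every family probe set, by gene, with filled points for probe sets that passed the signal filter and open points for those under it. Filled points of IL11, IL6R, LIFR and SOCS3 lie above the upper 2-fold line, and LIFR has an open point on each side of the 2-fold range.

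LIFR, the receptor chain for leukaemia inhibitory factor, was higher at each of its 3 probe sets that passed the filter. The brightest (225575_at) read 119.4 with control siRNA and 254.6 with CTNNB1 siRNA, 2.13-fold higher. The next (227771_at) read 66.7 and 120.9, and the third (205876_at) 56.1 and 76.6, with log2 ratios of 0.86 and 0.45. The difference was thus largest at the brightest probe set, and the others were under 2-fold.

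The 2 LIFR probe sets under the filter went opposite ways. One (225571_at) read 15.4 and 43.4, 2.82-fold higher. The other (229185_at) read 50.2 and 9.8, at least 3.64-fold lower against the floor. Both sides of the latter were dim, and its direction opposed that of the other 4. The LIFR call was also a near one: the log2 ratio was 1.09 as deposited but 0.98 after quantile normalization, 0.99 after loess and 0.94 after centring on the median ratio.

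IL6R, which encodes the interleukin-6 binding chain, differed by probe set. The brightest (226333_at) read 319.6 and 433.1, a log2 ratio of 0.44. A dimmer one (205945_at) read 49.6 with control siRNA and 154.5 with CTNNB1 siRNA, 3.11-fold higher. Both were higher with CTNNB1 siRNA, but they stood 1.20 apart on the log2 scale. The median over the pair, 1.04, passed 2-fold, whereas the brightest probe set alone did not. The third IL6R probe set (217489_s_at) was under the floor on both arrays.

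IL6ST, the gene of the shared chain gp130, was the brightest of the family. Its main probe set (212195_at) read 2662 and 3548.7, a log2 ratio of 0.41, and the next (212196_at) 455.6 and 565.4, a ratio of 0.31. Genes with a mean signal above 892 had a median log2 ratio of 0.26 on these arrays, beside the 0.41 of the brightest IL6ST probe set.

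Another IL6ST probe set that passed (204864_s_at) went from 67.1 to 41.5, a log2 ratio of -0.69. It passed only through its control signal, so it had to be lower. Of the 4 under the filter, 204863_s_at read 45.3 and 45.4 and 211000_s_at read 42.7 and 38.2, and the other 2 were under the floor on both arrays. The bright IL6ST probe sets were therefore modestly higher and the dim ones level or lower. Which IL6ST transcripts each probe set reads was not analysed here.

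OSMR, the oncostatin M receptor chain, was higher at all 3 of its probe sets, by unequal amounts. The brightest (226621_at) read 825.6 and 999.3, a log2 ratio of 0.28, and 205729_at read 204.7 and 259.6, a ratio of 0.34. The third (1554008_at) read 204.1 and 374.2, a ratio of 0.87. None passed 2-fold, and the brightest was close to the median of 0.26 for genes above 892.

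IL11RA, the chain that binds interleukin-11, had 2 probe sets of like brightness that disagreed in direction. One (204773_at) read 118.1 and 145, a log2 ratio of 0.30, and the other (1552646_at) read 154.8 and 91.9, a ratio of -0.75. They were 1.05 apart, and no direction can be given for the IL11RA transcript. Of the family receptors outside the 10 genes, CNTFR, the chain for ciliary neurotrophic factor, read 66.9 and 97.2, and IL27RA read 138.7 and 95.3. IL31RA did not pass the filter.

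STAT3, the transcription factor activated by gp130, had the smallest spread of ratios. Its 3 probe sets that passed read 520.9 and 653.3 (208991_at), 237.1 and 248.3 (225289_at) and 164.4 and 211.5 (208992_s_at). The log2 ratios were 0.33, 0.07 and 0.36, the closest agreement of any family gene with several such probe sets, and the median for genes between 209 and 892 was 0.18. A dim probe set under the filter (243213_at) read 37.9 and 44.5. STAT3 acts after phosphorylation, which an expression array does not measure.

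SOCS3, the STAT3-induced inhibitor of the receptor complex, read 81.5 with control siRNA and 193.8 with CTNNB1 siRNA at its brightest probe set (227697_at). This was 2.38-fold higher, a log2 ratio of 1.25. The other 3 SOCS3 probe sets were under the filter and did not share a direction. They read 37.6 and 53.1 (206359_at), 48.3 and 39.4 (206360_s_at) and 21.8 and 21.2 (214105_at). The SOCS3 call thus rested on 1 probe set, as the IL11 call did. Under an added pseudocount of 32 in place of the floor it fell just short, with a log2 ratio of 0.99.

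**Figure D4:**
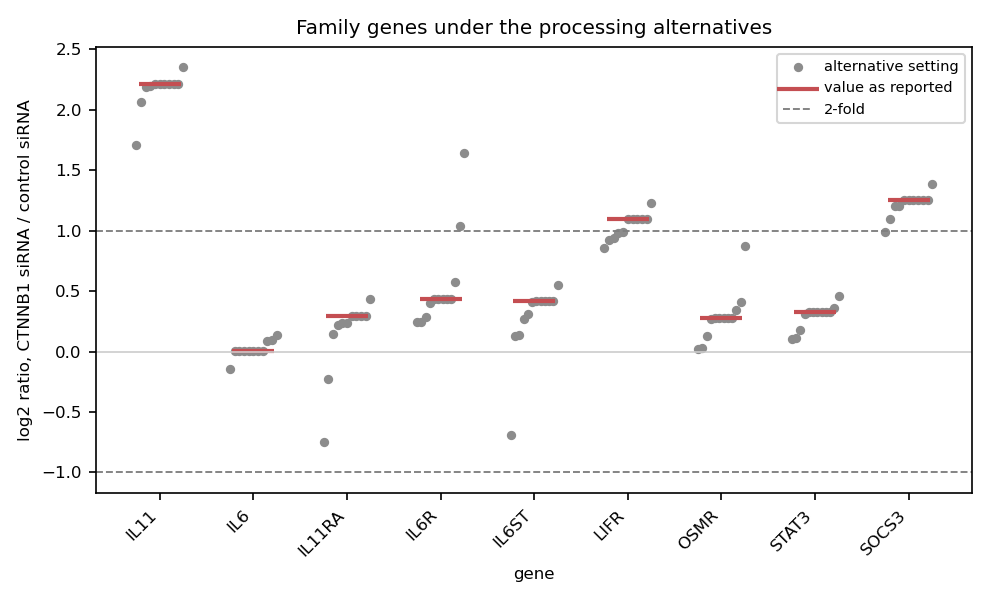
Log2 ratio of each family gene as reported (bar) and under the alternative processing settings in which it passed the filter (grey points, sorted by value within a gene). All IL11 points lie above the 2-fold line, while those of LIFR fall on both sides of it and those of IL11RA, IL6ST and IL6 reach below 0.

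Over all family genes with several probe sets that passed, the SD between probe sets of a gene was 0.50 on the log2 scale (16 probe sets of 6 genes), against 0.42 over all 5791 such genes on the array. The widest spans were in IL6R (1.20), IL6ST (1.11) and IL11RA (1.05), and the narrowest in STAT3 (0.30). Ratios of the family that are under these sizes are within the disagreement of probe sets for 1 gene.

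The rest of the pathway was counted by the same rule. In 6 lists of 74 further genes (other ligands, other receptors, Janus kinases and other STATs, inhibitors, adaptors with receptor-shedding enzymes, and genes known as STAT3 targets), 66 had a probe set of their own and 52 passed the filter. Of these, 1 was at least 2-fold higher, 0 were at least 2-fold lower and 51 lay between, which is 1.92% past 2-fold against 4.67% of all genes. These are counts on 1 pair of arrays without a test, and nothing is read from the difference between the shares. The share past 2-fold also depends on brightness. Above a mean signal of 892, 1.35% of all genes were at least 2-fold higher and 0.083% at least 2-fold lower. Some of the listed genes were that bright, such as SHC1 (4810.3 and 5858.6).

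JAK2, a kinase bound to the cytoplasmic part of gp130, was the gene past 2-fold. Its brightest probe set (205842_s_at) read 60.8 with control siRNA and 133.8 with CTNNB1 siRNA, 2.20-fold higher. The second (205841_at) read 34.3 and 71, 2.07-fold higher, and the third (1562031_at), under the filter, 5.7 and 38.5, at least 2.79-fold higher against the floor. All were dim, and 205841_at passed the filter only through its CTNNB1 siRNA signal, so it had to be higher and does not back the call of the brightest. Its log2 ratio was 1.14 as deposited, 0.99 after centring on the median ratio and 0.84 with the pseudocount.

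JAK1, the principal kinase of gp130, was brighter and had a log2 ratio of 0.68 (2021 and 3237.7 at 201648_at), with 0.68 to 0.92 over its 3 probe sets that passed. It was chosen after its values were seen, as was STAT4 (65.8 and 30.5), which missed the filter. The median of the 7 Janus kinase and STAT genes that passed was 0.10.

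Inhibitors of the pathway other than SOCS3 stayed under 2-fold. All 14 passed the filter and 0 were past 2-fold in either direction, with a median log2 ratio of 0.13. Across all genes 4.67% were past 2-fold, so 0 of 14 is not read as a trait of the inhibitors. By the brightest probe set, the largest absolute ratios were in PIAS1 (0.47), which encodes an inhibitor of STAT activity, SOCS2 (0.33) and SOCS6 (0.26). Further probe sets that passed read 0.85 and 0.34 for PIAS1, 0.58 for SOCS2 and 0.30 and 0.69 for SOCS6. Dimmer probe sets of other inhibitors that passed reached -0.92 for CISH and ran from -0.74 to 0.75 for PIAS2, both chosen after their values were seen.

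The adaptors and shedding enzymes had a median of 0.28 over 9 genes. None was past 2-fold, beside 4.67% of all genes, and nothing is read from a count over so few. GAB1, an adaptor that links the receptors to the MAP kinase and PI3 kinase pathways, had a log2 ratio of -0.65 (138.6 and 88.6). Its second probe set that passed (225998_at) read 78.7 and 39.9, a ratio of -0.98. It passed the filter only through its control signal, so it had to be lower and does not back the first. Under the filter, 226002_at read higher (34.6 and 40.2). Lower there were 214987_at (35.5 and 29), 207112_s_at (28 and 21.9) and 229114_at (32.6 and 12.2). ADAM10 and ADAM17, the proteases that release receptor ectodomains, had ratios of 0.42 and 0.38, although the other ADAM17 probe sets read 0.08 and -0.03.

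Genes known as STAT3 targets had a median close to that of all genes. Of 30 such genes 27 had a probe set, 20 passed the filter and 0 were past 2-fold in either direction by the brightest probe set. With 4.67% of all genes past 2-fold, 0 of 20 is not read as a trait of these targets. Their median log2 ratio was 0.19, beside 0.15 for all genes, and 12 of the 20 lay above the latter. By the same probe sets, the largest absolute ratios were in TIMP1, an inhibitor of metalloproteinases (0.67, from 1354.6 to 2158.4), MYC (0.62, from 614.5 to 944.2) and the fibrinogen chain gene FGA (0.55, dim at 45.9 and 67). The FGA probe set passed the filter only through its CTNNB1 siRNA signal, and another under the filter (205650_s_at) read 33.6 and 5.4. Dimmer probe sets that passed reached 1.09, past 2-fold, for the survival gene BCL2L1 (0.32 at its brightest) and 0.72 for the transcriptional repressor gene BCL6 (0.52 at its brightest), both chosen after their values were seen.

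**Figure D5:**
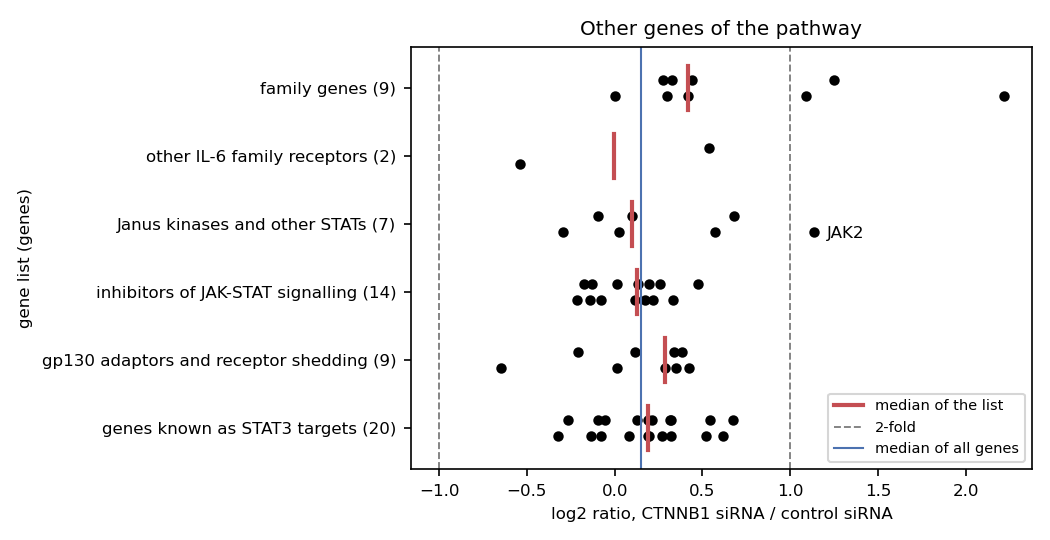
Log2 ratio of CTNNB1 siRNA over control siRNA for each gene that passed the filter (points), in the family and in the other lists of the pathway, with the number of genes in brackets and the median of each list as a bar. JAK2 is the point of the other lists beyond the 2-fold lines, and the list of other ligands has no gene that passed.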

How the data were processed

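The deposited table gave 1 linear signal intensity per probe set and array. The authors used MAS5, per the submitters' processing notes; its version, target intensity, scaling and detection calls are unstated here. Median intensities were 51.3 (control) and 46.7 (CTNNB1 siRNA), and no normalization was added. Gene names came from GEO's platform annotation (41097 with 1 symbol, 1801 with several, 11777 not listed), with 41043 symbols updated through Entrez numbers to RefSeq.

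Signals under the 25th percentile of all values (13.8) were set to that floor, log2 ratios were taken as CTNNB1 siRNA over control, and a gene was called by a fixed rule of 2-fold. With 1 array per group no test was possible, and the number of arrays limits the precision. Named were CTNNB1, all 10 family genes, in each other list the genes past 2-fold or otherwise the 3 with the largest absolute ratio, and the 5 genes nearest to IL11 in ratio. Members and lists were chosen with earlier results of these data known. The calculations were tested on simulated arrays. Python 3.11.15, pandas 2.3.3 and, for loess, limma 3.58.1 were used; quantile, loess, common median, centring, other floors, filters and choices of probe set were tried.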

Additional observations from a re-analysis of the deposited data

How the results depend on the processing

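IL11 stayed past 2-fold in the 11 of 12 alternative settings in which it passed the filter, with log2 ratios from 1.70 to 2.35. LIFR stayed past 2-fold in 6 of 11 and was under it after centring on the median ratio (0.94), cyclic loess (0.99), quantile normalization (0.98), as the median of its probe sets (0.86) and with a pseudocount of 32 and no floor (0.92). SOCS3 was under it only with the pseudocount (0.99). IL6R passed 2-fold as the median of its probe sets (1.04) and by its most changed probe set (1.64). IL11RA went below 0 in 2 settings, IL6ST and IL6 in 1 each, and STAT3 and OSMR in 0 of 12. CTNNB1 had -0.97 as the median of its probe sets. The count of family genes at least 2-fold higher was 0 when the filter was raised to the 75th percentile, which left 4 genes, IL11, LIFR and SOCS3 not among them, and 1 with the pseudocount; the family median was 0.87 by the most changed probe set.

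JAK2 was under 2-fold after centring (0.99) and with the pseudocount (0.84), so the Janus kinase and STAT list then had 0 genes higher, as it did under the raised filter. That list had 1 gene lower with no filter and a median of 0.57 without _s_at, _x_at and _a_at probe sets. STAT3 targets had 2 genes higher with no filter and 1 by the most changed probe set, and the other receptors had a median of -0.54 with no filter. Over all genes, 287 were higher and 298 lower as reported. The counts were 163 higher and 448 lower after centring, 472 and 183 with a common median, 139 and 34 under the raised filter, 722 and 1275 with no filter, 679 and 477 by the most changed probe set, and 166 and 93 with the pseudocount. With the floor at the median, 160 were lower. Fewer genes enter under the stricter filter; the cause of the other changes was not tested. No paired analysis was possible because each group is 1 array. The alternatives do not stand in for replicate cultures, and dim probe sets limit most of the family.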
